A study of Mus musculus with 2 samples.

Results

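The insulin-like growth factor (IGF) genes described here number 9: the ligand Igf1, the receptors Igf1r and Igf2r, the binding proteins Igfbp2, Igfbp4, Igfbp5 and Igfbp7, and the proteases Pappa and Pappa2. They were taken by symbol from both libraries, which together list 29373 symbols, and all 9 were found in both. The libraries hold single ovarian cells of female ICR mice, captured with BD Rhapsody beads. The control library came from mice given ddH2O, and the PS-MP library from mice that each received 1 mg of 0.1 µm polystyrene microplastics a day, suspended in 100 µL. Gavage started at 3 weeks of age and lasted 35 days, and ovaries were collected at 8 weeks. The labels give n = 16 mice, do not say whether that is per group, and tie no cell to a mouse, so each group is 1 library. No difference between them has a replicate check, and every interval covers counting error only.

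IGF1 made in the ovary acts together with follicle-stimulating hormone on granulosa cells, the somatic cells that surround the oocyte and make oestrogen, and it signals through the receptor tyrosine kinase IGF1R. Binding proteins hold IGF1 in the extracellular fluid and mostly keep it from the receptor. The protease PAPP-A, which preovulatory granulosa cells make, cuts IGFBP4 and frees bound IGF, and stanniocalcins block that cut.

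After filtering, 14538 control cells and 14412 PS-MP cells remained, with medians of 9502.5 and 8643 molecule counts (UMI counts) per cell. The libraries shared 3 cell barcodes. Cells were clustered without the IGF genes and named from marker lists that hold none of them. The 10 leading genes of a cluster, also used in naming, were ranked over all genes. They included Igfbp5 in cluster 4, Pappa in cluster 5 and Stc1 in the theca-like cluster. The marker levels given below are those that named the classes. Granulosa-like cells numbered 10245 and 9125 in 7 clusters. Cluster 0, led by Slc38a3, had, like clusters 2, 3 and 6, no granulosa marker among its 10 leading genes. It did not pass the check of leading genes against the class. Class ratios of PS-MP to control are therefore also given without it, below for Igf1 and Igfbp4. The others without cluster 0 were 0.9557 for Igf1r, 0.8893 for Igf2r, 1.198 for Igfbp2, 0.9143 for Igfbp5 and 1.212 for Igfbp7. The Igfbp7 value lay above the counting interval with cluster 0 kept, 1.105 to 1.199. The luteal-like cells fell into 2 unlike clusters, which were kept apart: cluster 12, led by Akr1c18, with 230 and 129 cells, and cluster 7, led by Edn2, with 9 control and 1907 PS-MP cells. Cluster 7 was almost confined to 1 library, so its levels are given for PS-MP alone. The other classes included theca-like cells (led by Cyp17a1), stromal (Col1a1), blood endothelial (Cldn5), macrophage (Lyz2), smooth muscle or pericyte (Rgs5) and oocyte-like cells (Zp2). The theca-like cluster scored 0.373 on theca and 0.381 on luteal markers, and took its name from its leading genes. Levels are UMI counts scaled to the class total (CPM), and they compare 1 gene between cells, not 1 gene with another. A gene counted as measured in a class at 20 CPM or more in either library, and as called higher or lower when PS-MP differed from control by at least 1.5-fold.

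**Figure D1:**
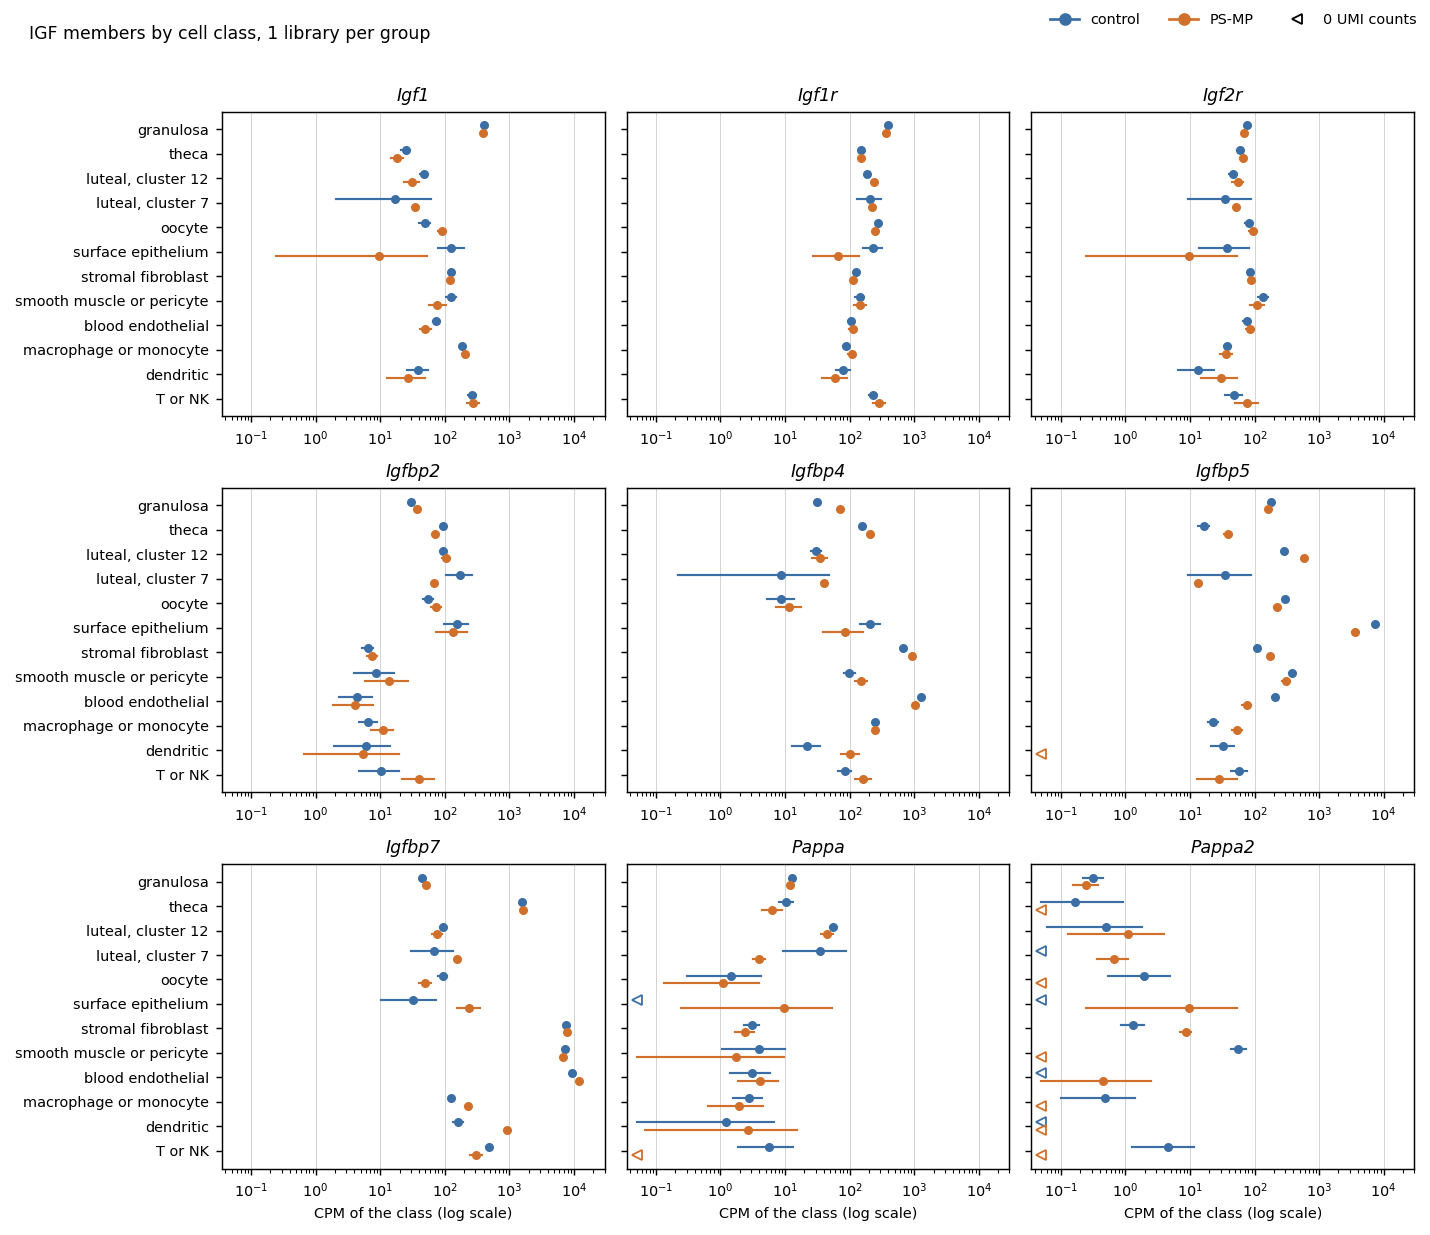
Level of each IGF member by cell class in CPM on a log axis, control in blue and PS-MP in orange, with 95% Poisson intervals as lines and open triangles for 0 counts. Igf1 and Igf1r have their highest points in granulosa-like cells, Igfbp4 in endothelial cells and Igfbp7 in endothelial, stromal and smooth muscle cells, while the largest gap between the colours in granulosa-like cells is that of Igfbp4.

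Igf1, the ligand, was highest in granulosa-like cells in both libraries, at 413 CPM in control and 399 in PS-MP. The ratio of PS-MP to control was 0.96 (95% interval 0.951 to 0.978), and 1.01 without cluster 0. T or NK-like cells, 98 and 41 in number, followed at 265 and 277 CPM, and granulosa markers reached a median of 48.4% and 61.2% of their granulosa level in those cells, beside 64.1% and 69.5% for Igf1. Macrophage-like cells, which overlapped them in PS-MP, had 185 and 205 CPM, 44.8% and 51.5% of the granulosa level. The granulosa markers stood at medians of 14.8% and 18.5% in macrophage-like cells, and 1 of the 10, Gatm, at 1090% and 1100%. Stromal cells held 123 and 121 CPM, with the granulosa markers at medians of 4.57% and 5.08%. Leaving out the surface epithelium-like cells (20 and 12), theca-like cells had the lowest level, 25 and 18.2 CPM, and were not separable from dendritic-like cells.

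Within the granulosa-like cells Igf1 spanned a wide range. Cluster 6, led by Inhbb, had the most, 684 CPM in control and 613 in PS-MP. Dividing cells (cluster 2, led by Ccnb1) had 501 and 455 CPM, and the Amh cells of cluster 4 had 459 and 470. Clusters 4 and 0 did not differ beyond their intervals in control, nor did clusters 4 and 2 in PS-MP. Cluster 5, with Cyp19a1 and Inhba, held 366 and 317 CPM. At the low end, cluster 3 (H19, Galnt15) had 135 and 121 CPM, and cluster 10 (Pcsk6, Car4) had 37.8 and 52.1. The highest cluster was thus 18.1-fold above the lowest in control and 11.8-fold in PS-MP. The ratio of PS-MP to control ran from 0.845 in cluster 0 to 1.38 in cluster 10, with the interval below 1 in 5 of 7 clusters and above 1 in 1, and no cluster was called.

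Igf1r, the signalling receptor, was likewise highest in granulosa-like cells, at 387 CPM in control and 367 in PS-MP (ratio 0.946, 0.933 to 0.96). Its clusters lay much closer together than those of the ligand, from 311 CPM in cluster 5 to 494 in cluster 10 in control, a range of 1.59-fold. Cluster 10, which had the least ligand, had the highest receptor level, apart from the next cluster in control. In PS-MP its 453 CPM was not separable from the 431 CPM of cluster 4. Oocyte-like cells had 276 and 252 CPM. The granulosa markers there stood at medians of 35.9% and 37.9% of their granulosa level, with Gatm at 578% and 853%. Luteal-like cluster 12 held 189 and 243 CPM (ratio 1.29, 1.14 to 1.45), and cluster 7 held 219 in PS-MP, apart from granulosa-like cells but not from cluster 12. The lowest class was the dendritic-like cells, at 79.5 and 59.6 CPM.

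Igf2r, the mannose 6-phosphate receptor that takes up IGF2 for breakdown, was spread over most classes. Smooth muscle or pericyte-like cells had 136 CPM in control and 109 in PS-MP, and the intervals of stromal, oocyte-like, granulosa-like and endothelial cells overlapped their neighbours in both libraries. Granulosa-like cells held 75.4 and 69.3 CPM (ratio 0.919, 0.889 to 0.95). Inside that class, clusters 5 and 6 had the most, with 123 and 120 CPM in control and 100.3 and 95.5 in PS-MP, and cluster 3 the least, with 42.2 and 43.8. Clusters 2, 5 and 6 were lower in PS-MP, by ratios of 0.82, 0.815 and 0.796, and all 3 stayed short of 1.5-fold.

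Igfbp4, which binds IGF1 and restrains its action on follicle cells, was the 1 member of 7 measured in granulosa-like cells that was called. It stood at 31.8 CPM in control and 72.0 in PS-MP, a ratio of 2.26 (2.17 to 2.36). Among all genes measured in that class 0.0544% were called higher and 0.476% lower. The ratio was 2.07 without cluster 0 and lay between 2.07 and 2.40 over all alternatives tried. It was at least 1.5-fold in 7 of 7 clusters, in 10 of 10 when the cells were split more finely, and in 6 of 7, the lowest at 1.49, when the IGF genes were allowed in the clustering. Over all genes the share called higher was 0.359% in the cells of cluster 0, 0.111% for cluster 2 and 0.566% for cluster 3. It was 0.545% for cluster 4, 1.19% for cluster 5, 0.573% for cluster 6 and 1.38% for cluster 10. The highest level was in cluster 3, with 84.4 and 194 CPM, then cluster 0, with 41.4 and 105 CPM. The granulosa marker score that named cluster 3 was 0.157, the lowest of the class, where at least 0.15 was needed. Cluster 5 showed the largest ratio, 2.71 (2.25 to 3.25), between 16.8 and 45.3 CPM. Clusters 4 and 10 stayed under 20 CPM in both libraries, at 6.73 and 12.7 CPM and at 9.44 and 14.6 CPM.

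More granulosa-like cells held an Igfbp4 count in PS-MP. With every cell thinned to 3500 UMI counts the share was 7.20% (6.71 to 7.72) in control and 14.4% (13.7 to 15.1) in PS-MP, and 15.2% and 24.1% before thinning. In oocyte-like cells, the class with the lowest Igfbp4 CPM, the thinned share was 5.41% and 4.40%. The median depth was 9915 and 8953 counts per granulosa-like cell, and 27134.5 and 16085 per oocyte-like cell. The 5 cells with the most counts held 4.54% and 2.85% of the Igfbp4 counts, and the ratio without the 5 richest cells was 2.3.

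Igfbp4 was far higher in endothelial, stromal, macrophage-like and theca-like cells, and in these 4 classes the ratios lay closer to 1. Endothelial cells had 1269 CPM in control and 1044 in PS-MP (ratio 0.823, 0.781 to 0.867), and stromal cells 662 and 941 (1.42, 1.39 to 1.46). Theca-like cells had 157 and 208 CPM (1.33, 1.21 to 1.45), and macrophage-like cells 248 in both. The granulosa level equalled 2.51% of the endothelial level in control and 6.90% in PS-MP, while the 8 endothelial markers stood at medians of 0.204% and 0.230%. In granulosa-like cells the summed stromal markers were 82.7 and 91.0 CPM (ratio 1.10) and the endothelial markers 14.1 and 14.7 (1.04). No marker of either list was at 0. A stromal or endothelial marker count was present in 48.7% of control and 47.1% of PS-MP granulosa-like cells, and among the cells without one the Igfbp4 ratio was 2.19.

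**Figure D2:**
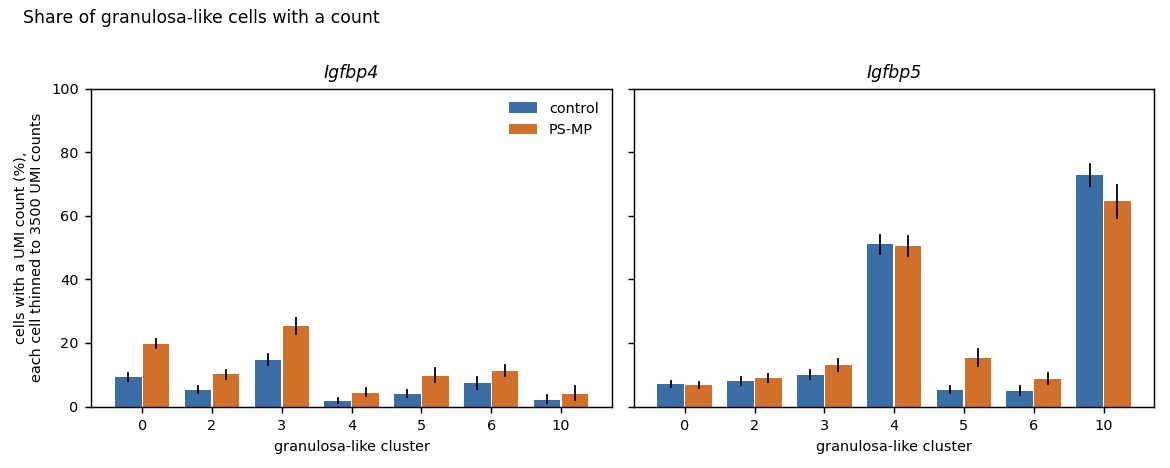
Share of granulosa-like cells with an Igfbp4 (left) or Igfbp5 (right) count, in percent, by cluster and library (control blue, PS-MP orange), after thinning each cell to 3500 UMI counts, with 95% Clopper-Pearson intervals. The Igfbp4 bar is higher in PS-MP in every cluster, whereas for Igfbp5 the clusters 5 and 6 stand out, with 5.22% against 15.4% in cluster 5.

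Igfbp4 and Igfbp5 were called higher together in PS-MP in clusters 5 and 6. Igfbp2 was called higher too in cluster 5 and, with Igfbp4, in cluster 3, and its windows are not shown. The 250 bases before the annotated starts of Igfbp4 and Igfbp5 are shown, 5′ to 3′ on the gene's strand, and their part in the levels was not tested. They are from RefSeq on build GRCm38.p6, not the build GRCm39 that the submitters name, at chr11:99040994-99041243 on the plus strand for Igfbp4 and chr1:72874866-72875115 on the minus strand for Igfbp5. Capitals mark a TATA box.
Igfbp4: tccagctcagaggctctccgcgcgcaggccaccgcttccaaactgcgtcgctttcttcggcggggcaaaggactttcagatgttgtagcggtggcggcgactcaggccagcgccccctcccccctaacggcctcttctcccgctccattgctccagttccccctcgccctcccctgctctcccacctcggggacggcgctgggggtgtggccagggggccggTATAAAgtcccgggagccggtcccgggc
Igfbp5: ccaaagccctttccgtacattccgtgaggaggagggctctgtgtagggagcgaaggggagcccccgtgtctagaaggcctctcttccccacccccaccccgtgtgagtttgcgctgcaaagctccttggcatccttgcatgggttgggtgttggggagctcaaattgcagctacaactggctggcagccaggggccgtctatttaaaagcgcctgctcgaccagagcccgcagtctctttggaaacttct

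Both windows were searched on both strands for 6 motifs, and shares are of 32851 windows of that length over all genes. The TATA box (TATAAA) was in 12.4% of all windows. The GC box (GGGCGG) was in 32.7% of them. The CCAAT box, spelled by its name, was in 33.8%. The SF-1 site (AAGGTCA) was in 4.08% of the windows. The FOXO site (GTAAACA) was in 3.17% of the windows. The cAMP response element (TGACGTCA) was in 1.55%. Igfbp4 held 1 match, the TATA box that starts 28 bases before the annotated start, and Igfbp5 held none of these letters. A window was found for 8 of the 9 members.

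Igfbp5, a binding protein that also attaches to extracellular matrix, had opposite differences in different granulosa-like clusters, which the level of the whole class did not show. The class had 178 CPM in control and 159.9 in PS-MP (ratio 0.896, 0.877 to 0.916). Most of that came from cluster 10, with 1023 and 846 CPM, and the Amh cells of cluster 4, with 775 and 731. Cluster 10 had 635 control and 359 PS-MP cells. The class ratio was 0.961 with clusters weighted alike and 0.737 with cluster 7 counted in. Among cells without a stromal or endothelial marker count it was 0.991. In cluster 5 the level was 25.3 CPM in control and 99.1 in PS-MP, a ratio of 3.92 (3.41 to 4.50). In cluster 6 it was 20.6 and 52.3 CPM, a ratio of 2.54 (2.16 to 2.99). These 2 clusters had the lowest Igfbp5 in control, and their intervals did not separate them from each other there. In PS-MP cluster 5 was no longer separable from cluster 3, at 104 CPM.

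The thinned share of cells with an Igfbp5 count in cluster 5 was 5.22% (4.12 to 6.51) in control and 15.4% (12.8 to 18.1) in PS-MP. In theca-like cells, which had the least Igfbp5 in control, the shares were 2.32% and 5.66%. Median depths were 8731.5 and 7724 counts in cluster 5, and 9918.5 and 7956 in theca-like cells. In cluster 5, the 5 cells richest in Igfbp5 held 18.3% and 20.2% of its counts. The cluster 6 shares were 4.86% and 8.68%. Granulosa markers summed to a ratio of 0.926 in cluster 5 and 1.03 in cluster 6, and stromal markers to 1.16 and 1.44. Their part in the Igfbp5 ratios was not tested. Of the 8 members measured in cluster 5, 3 were called higher (Igfbp2, Igfbp4 and Igfbp5) and 0 lower, where 1.19% of all genes were higher and 2.03% lower. In cluster 6, 2 of 7 were called higher, beside 0.573% of all genes, and in cluster 3, 2 of 7, beside 0.566%.

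**Figure D3:**
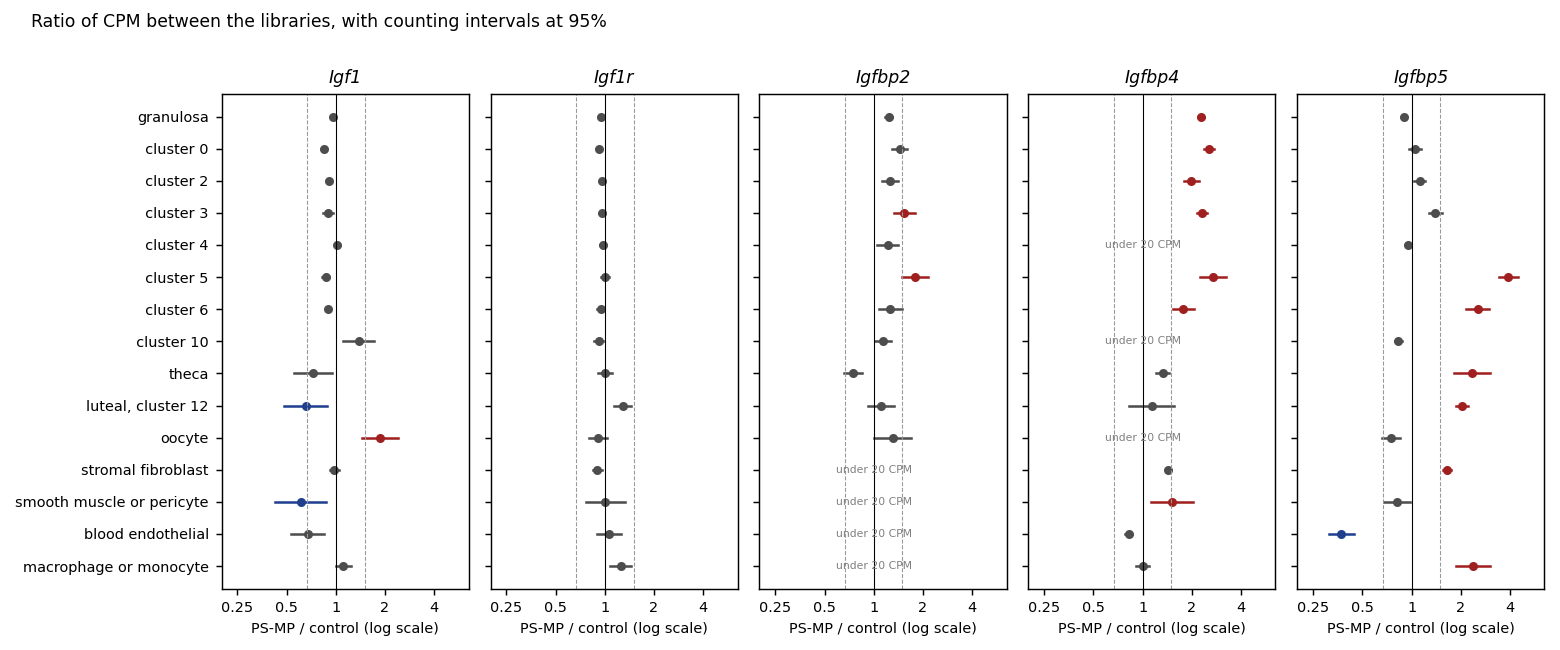
PS-MP over control ratio of 5 members on a log axis, by granulosa-like class and cluster and by other class, with 95% counting intervals; dashed lines mark 1.5-fold, red and blue mark called ratios, and genes under 20 CPM are written out. Igfbp4 lies to the right in the granulosa-like clusters that reach 20 CPM, and among the cells plotted Igfbp5 ranges from 0.371 in endothelial cells to 3.92 in cluster 5.

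Outside the granulosa-like cells Igfbp5 was called in both directions. Stromal cells had 108 CPM in control and 177 in PS-MP (ratio 1.64, 1.55 to 1.74), the 1 member of 6 called there, beside 0.782% of genes called higher. Summed stromal markers in those cells had a ratio of 1.12. Theca-like cells had 16.4 and 38.3 CPM (2.33, 1.82 to 3.0), the 1 of 7 called, beside 1.22% of genes, and 5 cells held 75.5% of the control counts and 44.0% of the PS-MP counts. That ratio was 1.499, no longer called, with IGF genes allowed in the clustering, and 6.27 with at most 15% mitochondrial counts. Luteal-like cluster 12 had 282 and 576 CPM (2.04, 1.88 to 2.22), with the thinned share of cells at 15.7% (11.2 to 21.0) and 25.6% (18.3 to 34.0), which overlap. There 1 of 8 members was called higher and 1 lower, beside 4.87% and 6.08% of genes.

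In endothelial cells Igfbp5 went the other way, from 205 CPM in control to 76.0 in PS-MP (0.371, 0.311 to 0.441), the 1 of 6 members called, beside 3.35% of genes called lower. The share of cells hardly differed, at 11.4% and 10.6%. The 5 richest cells held 61.4% of the control and 50% of the PS-MP counts, and the ratio without them was 0.483. The surface epithelium-like cells, 20 in control and 12 in PS-MP and so too few for a ratio, had 7480 and 3581 CPM, and 100% of them held a count.

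Igfbp2, a secreted binding protein of IGF1 and IGF2, was somewhat higher in PS-MP in granulosa-like cells. The class had 29.9 CPM in control and 36.9 in PS-MP (ratio 1.24, 1.18 to 1.30), short of 1.5-fold, and the interval lay above 1 in 7 of 7 clusters. Under other clusterings this held in 3 of 4, in 8 of 10 and, with IGF genes allowed, in 6 of 7. Cluster 10 had 149 and 169 CPM, and each other cluster lay between 20.3 and 38.3 CPM with neighbours overlapping. It was called in cluster 3, with 24.9 and 38.3 CPM (1.54, 1.33 to 1.79), and cluster 5, with 20.3 and 36.5 CPM (1.80, 1.5 to 2.16). Theca-like cells differed in the other direction, with 95.3 and 71.2 CPM (0.747, 0.654 to 0.853). Luteal-like cluster 12 held 94.3 and 105 CPM, and cluster 7 held 68.9 in PS-MP.

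**Figure D4:**
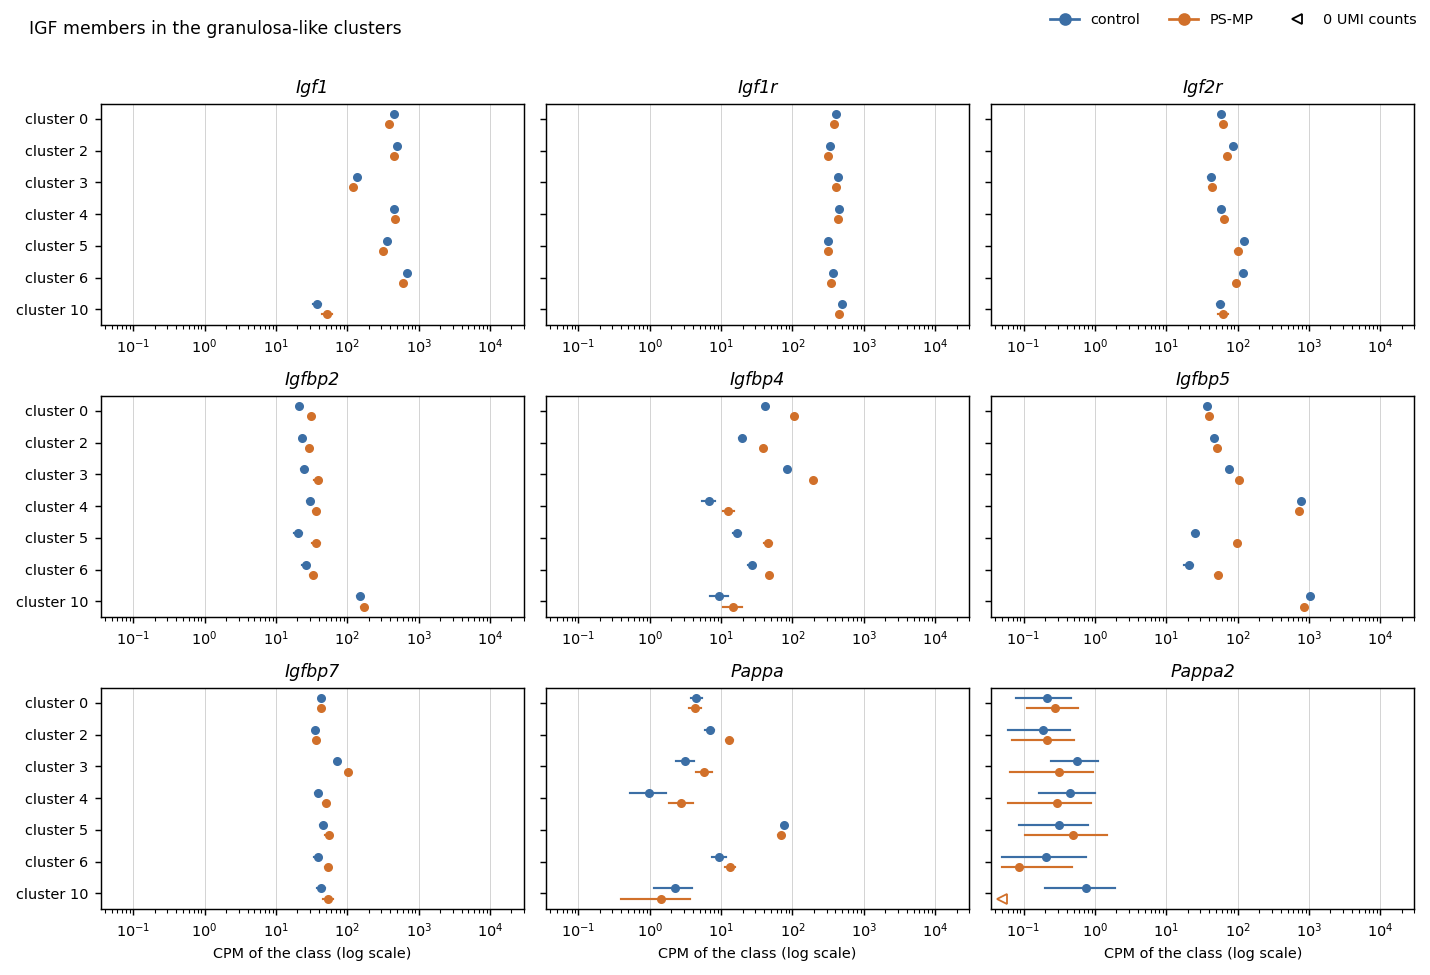
Level of each IGF member in the 7 granulosa-like clusters in CPM on a log axis, control in blue and PS-MP in orange, with 95% Poisson intervals. Pappa stands apart in cluster 5, Igfbp5 in clusters 4 and 10, and Igfbp2 in cluster 10. Igf1 is lowest in cluster 10, where Igf1r has its highest point, its interval overlapping that of cluster 4 in PS-MP.

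Igfbp7, a secreted protein of vessels and connective tissue that binds IGFs weakly, was highest in vessel and connective tissue cells. Endothelial cells had 9456 CPM in control and 11830 in PS-MP (ratio 1.25, 1.23 to 1.27), stromal cells 7576 and 7790 (1.03, 1.02 to 1.04), and smooth muscle or pericyte-like cells 7249 and 6792 (0.937, 0.901 to 0.974). Theca-like cells came next with 1593 and 1657 CPM. A count was present in 99.7% and 99.9% of thinned stromal cells. In granulosa-like cells it was 44.1 and 50.8 CPM, which is 0.467% and 0.430% of the endothelial level, beside 0.204% and 0.230% for the endothelial markers. The granulosa-like share, 11.9% and 12.9%, was close to that of oocyte-like cells, 10.8% and 13.2%. Cluster 7 had 153 CPM in PS-MP, and counting it as granulosa-like moved the class ratio from 1.15 to 1.60.

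Pappa, the gene of PAPP-A, was found mainly in 2 places. Cluster 5, the Cyp19a1 and Inhba cells, had 75.6 CPM in control and 68.3 in PS-MP (ratio 0.903, 0.803 to 1.02). Luteal-like cluster 12 had 56.2 and 45.4 CPM (0.808, 0.621 to 1.04), with the intervals of both ratios including 1. All other granulosa-like clusters stayed below 20 CPM, the next highest being cluster 6 with 9.38 and 13.3 CPM. The class as a whole stood at 13.0 and 12 CPM, and cluster 7 at 3.98 in PS-MP. In cluster 5 the thinned share of cells with a Pappa count was 13.1% and 13.5%, against 0.723% and 0.869% of stromal cells, where the median depths were 8518 and 7532.5 counts. In cluster 5, Igfbp4 and Igfbp5, whose products PAPP-A and its relative can cut, had ratios of 2.71 and 3.92.

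Pappa2, the gene of a related protease that cuts IGFBP5, was scarce. It stood at 0.318 and 0.248 CPM in granulosa-like cells, from 35 and 22 counts. Stromal cells had 1.32 CPM in control and 8.56 in PS-MP, from 24 and 122 counts, a ratio of 6.48 (4.16 to 10.5). The count was held by 0.362% (0.145 to 0.744) and 1.80% (1.22 to 2.54) of thinned stromal cells, and the 5 richest cells held 50% and 24.6% of its counts. The gene was not measured by the 20 CPM rule. Smooth muscle or pericyte-like cells had 56.4 CPM in control, all 58 counts of it in 1 cell, and 0 counts in PS-MP, which is at least 11-fold lower against 3 counts in that library.

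Calls in the smaller classes rested on few cells. Among macrophage-like cells, 2 of 6 members were called higher, beside 3.96% of genes. These were Igfbp5, with 22.8 and 54.2 CPM (ratio 2.38), and Igfbp7, with 124 and 228 CPM (1.85). A single cell held 38.0% of the control and 50.7% of the PS-MP Igfbp5 counts. The Igfbp5 ratio was 1.01 with a stricter mitochondrial limit, and the Igfbp7 ratio was 1.08 with doublets kept. The summed stromal markers had a ratio of 2.60 and the theca markers 2.12 in the same cells, and their part was not tested.

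Of the 6 members measured in oocyte-like cells, Igf1 was called higher and Igfbp7 lower, beside 2.89% and 3.16% of genes. Igf1 had 49.0 and 91.3 CPM (ratio 1.86, 1.45 to 2.41) from 74 and 91 cells, and stayed past 1.5-fold in 10 of 10 alternatives. The 5 richest cells held 70.3% of the control and 40% of the PS-MP counts, and the ratio was 3.70 without them. The Igf1 level was 11.9% and 22.9% of the granulosa level, below the medians of the granulosa markers, 35.9% and 37.9%. Igfbp7 had 92.7 and 50.4 CPM (0.543), with 49.2% of the control counts in 1 cell, and the ratio reversed under 3 alternatives. Luteal-like cluster 12 had 47.8 and 31.3 CPM of Igf1 (0.655, 0.480 to 0.884), which was no longer called with median-of-ratios scaling (0.671) or with cells weighted alike (0.695).

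In smooth muscle or pericyte-like cells 1 of 7 members was called higher and 2 lower, beside 8.58% and 9.8% of genes. Igfbp4 had 99.2 and 150.5 CPM (1.52, 1.13 to 2.04), under 1.5-fold in 7 of 10 alternatives, and Igf1 had 126 and 77.0 CPM (0.613), inside 1.5-fold in 3 of 10, at up to 0.801 with doublets kept. Dendritic-like cells pooled 2 clusters that were not split here. Cluster 16, led by Ccl22, had 61 control and 42 PS-MP cells, and cluster 17, led by Siglech, had 71 and 21. The part of this mix in the ratios was not tested. In dendritic-like cells 3 of 6 members were called higher and 1 lower, beside 12.2% and 19.3% of genes. Igfbp4 had 21.7 and 103 CPM (4.75) and Igfbp7 163 and 929 (5.71), each resting on few cells. For Igfbp4, 5 cells held 94.4% of the control and 76.3% of the PS-MP counts, and the ratio was 21.9 without the richest 5. For Igfbp7, 5 cells held 94.8% of the PS-MP counts, and the ratio was 0.972 without the richest 5. Summed stromal markers had a ratio of 7.19 there. Igf2r had 13.2 and 29.8 CPM (2.25, 0.884 to 5.72), and Igfbp5 had 27 counts in control and 0 in PS-MP.

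The other genes of the pathway were a list of 50: further ligands and receptors, binding proteins, protease inhibitors, and the growth hormone, phosphoinositide 3-kinase, mTOR and MAP kinase steps. In granulosa-like cells 34 were measured, 0 were called higher and 1 lower, beside 0.0544% and 0.476% of all genes. Their median log2 ratio was -0.07, beside -0.02 over all genes measured. The 1 gene was Ghr, the growth hormone receptor, with 57.3 CPM in control and 35.7 in PS-MP (0.622, 0.596 to 0.650). Among the granulosa-like clusters Ghr was called lower only in cluster 0, and with clusters weighted alike it was no longer called in the class. Ghr was also lower in endothelial cells, with 52.3 and 34.4 CPM (0.658), and short of the limit in theca-like cells, with 43.9 and 30.1 CPM (0.685). Insr, the insulin receptor, had 55.2 and 46.3 CPM in granulosa-like cells (0.838, 0.805 to 0.872) and was highest in endothelial cells, with 189 and 150.2 CPM (0.795, 0.692 to 0.913).

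Igf2 was all but undetected, with 0 counts in control granulosa-like cells and 0.0113 CPM in PS-MP. Stc1, whose product inhibits PAPP-A, was highest in theca-like cells, with 760 CPM in control and 1141 in PS-MP (1.5, 1.45 to 1.56). It was called lower in endothelial cells, with 120 and 73.8 CPM (0.616). In endothelial cells 2 of 34 listed genes, Stc1 and Ghr, were called lower, beside 3.35% of all genes. Igfbp6, which prefers IGF2, was called higher in theca-like cells, with 29.2 and 48.8 CPM (1.67, 1.38 to 2.04), and had 177 and 161 CPM in stromal cells. Theca-like cells had 2 of 36 listed genes called higher, beside 1.22% of all genes, and stromal cells 0 of 36, beside 0.782%. Igfbp3 was found in endothelial cells, with 306 and 226 CPM (0.739, 0.661 to 0.825), against 0.527 and 0.395 in granulosa-like cells.

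In macrophage-like cells, where 3.96% of all genes were called higher, so were 3 of 33 listed genes: Stc1, with 10.6 and 29.5 CPM (2.78), Htra1, a secreted protease, with 68.6 and 134 CPM (1.95), and Ghr, with 12 and 20 CPM (1.67). Stc1 and Ghr reached 20 CPM only in PS-MP. The summed stromal and theca markers were also higher in PS-MP in these cells, as given above, and their part was not tested. In luteal-like cluster 12, 1 of 32 listed genes was called higher and 1 lower, beside 4.87% and 6.08% of all genes. Irs2, an adaptor of the insulin and IGF receptors, was called higher there with 27.1 and 42.6 CPM (1.58, 1.16 to 2.13). The protease gene Adam12 was called lower in cluster 12, with 31.6 and 0.540 CPM. Stc2, the other stanniocalcin, had 9.86 and 1.62 CPM there and 69.5 and 53.4 in theca-like cells. In oocyte-like cells 1 of 37 was called higher and 2 lower, beside 2.89% and 3.16% of all genes. In smooth muscle or pericyte-like cells 3 of 36 were called higher and 0 lower, beside 8.58% and 9.8%. In dendritic-like cells 4 of 33 were called higher and 3 lower, beside 12.2% and 19.3%.

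The genes with the most similar profile were ranked by Pearson's r of log2(CPM + 10) over 32 cluster-by-library profiles, among 8160 genes. The profiles share libraries and depth, so r is a description. Igf1 was followed most closely by Slc38a5 (0.921), Susd1 (0.915) and Skp2 (0.912), and Igf1r by Mboat2 (0.956), Krba1 (0.945) and Cxadr (0.943). Igfbp7 was nearest to Grb10 (0.966), Rhoj (0.960) and Sparcl1 (0.960). Igfbp4 was nearest to Slc29a1 (0.864), Glul (0.845) and Nrp2 (0.844), and Igfbp2 to Oplah (0.910), Pex14 (0.894) and Tm9sf2 (0.887). The likeness was looser for Igf2r, led by Fut11 (0.880), Ccdc127 (0.827) and Pja2 (0.812), for Pappa, led by Usp3 (0.816), Gata6os (0.783) and Frmd5 (0.756), and for Igfbp5, led by Mical2 (0.798), Nt5c3 (0.761) and Gramd4 (0.741). Pappa2 was nearest to Pi15 (0.737), Kcne4 (0.699) and Ntrk2 (0.698). Between members the highest r was 0.806, for Igfbp4 and Igfbp7.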

How the data were processed

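Both files held UMI counts per gene and cell, deposited by the authors as whole numbers with no normalization. Per the submitters' processing notes, build GRCm39 and Seurat were used, in roles not given in the sources used here, as are the aligner and the counting tool. Cells with at least 500 genes and at most 25% mitochondrial counts were kept, and doublets called by scrublet in scanpy 1.11.5 (expected rate 0.05) were removed: 315 control and 358 PS-MP cells. From counts scaled to 10000 and logged, 2000 variable genes without the IGF genes, 30 components and 15 neighbours gave 19 Leiden clusters (leidenalg 0.10.2, resolution 0.5, seed 1), with no batch correction.

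A cluster took the class with the highest mean relative marker level (at least 0.15, with 3 markers at 20 CPM), unless another class had more, and at least 2, of its 10 leading genes. Counts were summed per class and library. Levels have exact Poisson intervals, ratios exact conditional binomial ones and shares Clopper-Pearson ones, at 95%. Ratios needed 50 cells in both libraries. With 1 library per group no test was made. The ratios and intervals were tested on simulated Poisson counts. That is the model the intervals assume, so the test cannot show how they hold where a few cells carry most counts. All members were named. Pathway genes were named when at least 1.5-fold apart in a class, or from a short set of ligands, receptors, binding proteins and stanniocalcins, with the 3 most similar genes per member. The members and lists were chosen with earlier results of these data known, and the scoring of clusters was set after the files were read. Of the leading genes of cluster 0, 1 is not reported here.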

Additional observations from a re-analysis of the deposited data

Results flagged for a closer look

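Igfbp5 had opposite directions in classes with at least 200 cells in both libraries. The ratio of PS-MP to control was 0.371 in blood endothelial-like cells, and 1.64 in stromal fibroblast-like, 2.33 in theca-like and 2.38 in macrophage or monocyte-like cells. The difference between these classes was not tested. In the endothelial-like cells the ratio lay between 0.289 and 0.483 over 10 alternatives, and in the stromal-like cells between 1.53 and 1.69. The ratio lay between 1.499, with the IGF genes allowed in the clustering, and 6.27 in the theca-like cells. It lay between 1.01 and 2.81 in the macrophage-like cells, where it was inside 1.5-fold with at most 15% mitochondrial counts (1.01) and at resolution 1.0 (1.34).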

How the results depend on the processing

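Of 561 recomputed ratios, 493 stayed inside the counting interval of the original ratio, 64 moved further and 4 reversed. Reversal was counted only for ratios first called at 1.5-fold, so uncalled ratios that crossed 1 are not among the 4. For example, Igfbp4 in luteal-like cluster 12 went from 1.14 to 0.623 without the 5 cells richest in it. Igfbp7 in oocyte-like cells reversed to 1.4 with cells weighted alike, 1.03 with doublets kept and 1.28 with thinned cells. Igfbp7 in dendritic-like cells reversed to 0.972 without the 5 cells richest in it. The cause was not tested. In granulosa-like cells the count of members called higher was 2 with cluster 7 counted in and 2 at a fold of 1.2. The count of pathway genes called lower was 0 with clusters weighted alike, 3 at a fold of 1.2 and 0 at a fold of 2. For 40 of 57 ratios all alternatives stayed on the same side of 1.5-fold. Among those that crossed it, Igfbp5 in theca-like cells came to 1.499 with IGF genes allowed in the clustering, against 6.27 with at most 15% mitochondrial counts. The alternatives on cluster 0, cluster 7, marker-bearing cells and the richest cells were chosen after seeing the data. With 1 library per group, differences between mice, preparations and exposure cannot be told apart, and intervals cover counting error only. No paired analysis was possible because each group has 1 library.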
